A study of Homo sapiens with 21 samples.

Results

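Gene expression was compared between YAPKO2, a YAP1 knockout line made from the human neuroblastoma cell line NLF, and the parental NLF line. The comparison rests on 6 of the 21 libraries of the series, 3 of YAPKO2 in the solvent DMSO and 3 of the parental line, which were chosen by their labels and not by any measured value. The YAPKO2 cells carried a CRISPR guide against YAP1, were treated with DMSO 24 h after plating and were collected after 72 h. The parental cells carried no guide and no Cas9 and are also labelled as treated with DMSO. The series text names that treatment for the other lines only, so the culture time of the parental cells is uncertain. The labels give the DMSO concentration as 0.01% and the series text as 0.1%. All groups were grown in RPMI medium with 10% serum. Beside this comparison, values are given for sgCON, an NLF line transduced with Cas9 and a scrambled guide, and for YAPKO1, a line with another YAP1 guide, both in DMSO and with 3 libraries each. YAPKO2 differs from the parental line by lentiviral Cas9, by the growth history of a derived line and by the guide against YAP1, with lower YAP1 RNA. In YAPKO2 against parental these cannot be told apart. Each line is 1 line, and whether it descends from 1 clone is not given in the sources used here. Nothing says that the 3 libraries of a group are separate cultures, so p-values measure the spread between libraries within groups, which may be technical. This spread was estimated over all 21 libraries of the series. These include libraries of sgCON, YAPKO1 and YAPKO2 treated with the drug trametinib at 20 nM, which are not compared here.

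YAP, the protein of YAP1, is a transcriptional coactivator without a DNA-binding domain of its own. The kinases of the Hippo pathway, MST and LATS, phosphorylate YAP and its relative TAZ and keep them in the cytoplasm. When they enter the nucleus, both bind the TEAD factors and switch on genes such as CTGF and CYR61. Neuroblastoma arises from the sympathetic lineage of the neural crest, and its cells range from a neuronal, adrenergic state to a mesenchymal state in which YAP and matrix genes are high.

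The guides are shown because they define the lines: YAPKO2 is the line of the first sequence. Capitals mark the PAM, the 3 bases that Cas9 needs beside its target, where the guide matched YAP1.

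YAPKO2: gtgcacgatctgatgcccggCGG

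YAPKO1: cgccgtcatgaaccccaagaCGG

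sgCON: gcactcacatcgctacatca

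The YAPKO2 guide matched chromosome 11, 102110997 to 102111016 (GRCh38). The site is coding sequence of the first exon (exon 1) of YAP1, on the strand opposite to the transcript. It matched 7 of 11 annotated YAP1 transcripts and no transcript of another gene, and the expected cut lies after 151 coding bases. The YAPKO1 guide lies downstream in the same exon, at 102111058 to 102111077, with the expected cut after 226 coding bases. The scrambled guide had 0 exact matches in 206694 transcripts.

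YAP1 RNA was far lower in YAPKO2 than in the parental line. The parental libraries held 29.4, 32.9 and 33.4 FPKM (fragments per kilobase of transcript, normalized by the authors to the library's total, and scaled here between libraries), and the YAPKO2 libraries 3.18, 2.68 and 2.81. The groups did not overlap, and every YAPKO2 library was under the lowest parental library, as for 28.7% of all genes tested (28.8% had all YAPKO2 libraries above). On the scale log2(FPKM + 0.5), used for all differences here, YAP1 fell by 3.26 ± 0.23 (SE; adjusted p = 9.16e-09, limma). YAP1 stood at 25.6 ± 1.88 FPKM (SD, n = 3) in sgCON, and sgCON minus parental was -0.31 (adjusted p = 0.42). YAPKO1 kept 11.7 ± 2.30 FPKM, and YAPKO2 was the lower of the knockout lines, with YAPKO2 minus YAPKO1 at -1.83 (adjusted p = 4.94e-05). The lower level of RNA does not show which alleles were cut, since neither DNA nor protein was measured. In this and all later results fewer cells of a kind and less RNA per cell cannot be told apart.

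Of 16194 genes tested, 6091 (37.6%) differed between YAPKO2 and the parental line at an adjusted p under 0.05, 3202 (19.8%) higher and 2889 (17.8%) lower in YAPKO2. At least 2-fold changes were called higher for 698 genes (4.31%) and lower for 1260 (7.78%), and the median difference over all genes was 0.00. The same fit called 2556 genes (15.8%; 7.82% higher and 7.96% lower) for sgCON against parental, 4400 (27.2%; 14.7% higher and 12.4% lower) for YAPKO1 against parental and 4373 (27%; 14.2% higher and 12.9% lower) for YAPKO2 against sgCON. YAPKO2 differed from YAPKO1 at 1125 genes (6.95%), 3.71% higher and 3.24% lower. Without YAPKO2 replicate 2 the count fell to 4171 (2235 higher, 1936 lower). Means below are scaled FPKM ± SD over 3 libraries, and the share of called genes stated here is the background for every count of list members.

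The libraries also differed in base composition, and this ran along the comparison. The median deviation of GC-rich protein-coding genes minus that of GC-poor ones (outer quartiles of transcript GC content, log2) was -0.60 to -0.56 in the parental libraries and 0.09, 0.64 and 0.17 in YAPKO2 replicates 1, 2 and 3. In sgCON it was -0.48 to -0.37. Across genes, the YAPKO2 difference and GC content had a Spearman rho of 0.46, given as a description since all points share 6 libraries. A spline correction for GC content called 6258 of 15615 genes (40.1%). Corrected values are printed where a call was lost or a value moved by over 1.5 times. The 10 highest genes took 40.5% to 48.6% of FPKM in YAPKO2 and 51.1% to 59.2% in parental cells, and between 13728 and 14259 genes reached 1 FPKM in these 6 libraries. The number of reads is unknown.

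**Figure D1:**
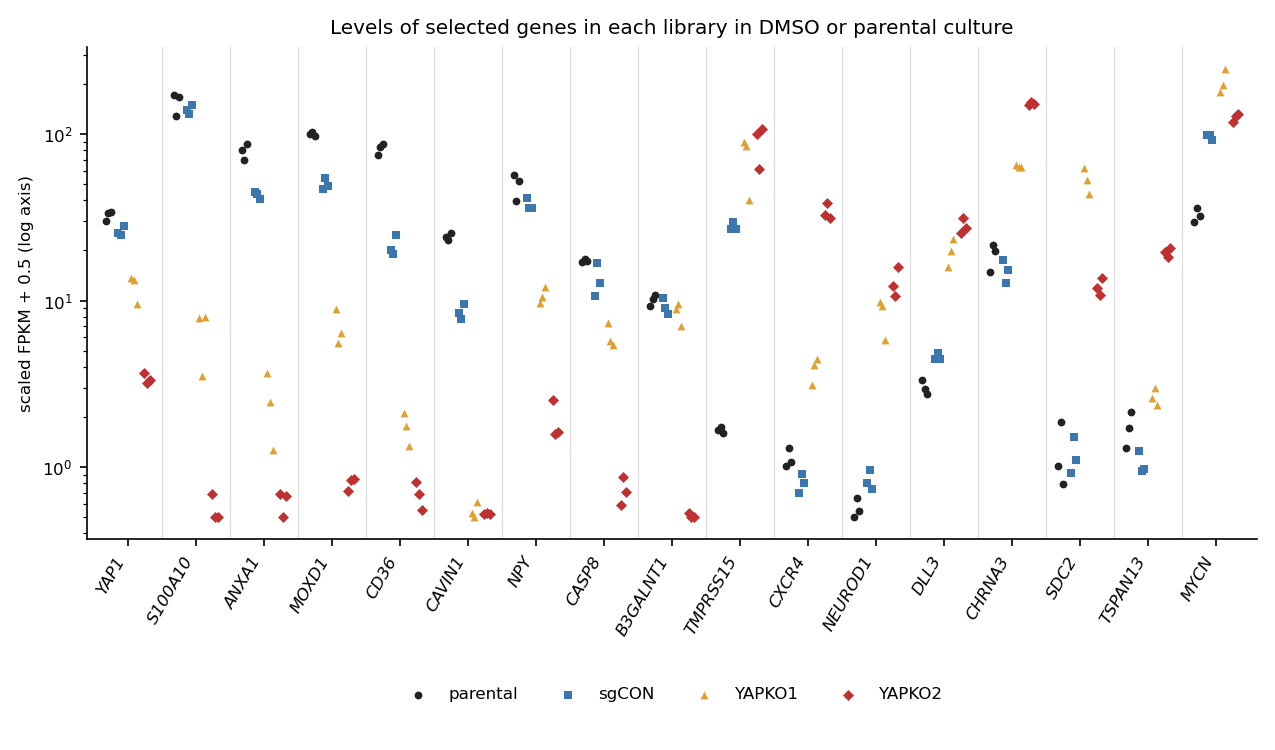
Scaled FPKM + 0.5 (log axis) of 17 genes in each of the 3 libraries of the parental line, sgCON, YAPKO1 and YAPKO2; each point is a library. From S100A10 to B3GALNT1 the YAPKO2 points lie below all parental points, and from TMPRSS15 to MYCN above them; MYCN and TMPRSS15 are also high in sgCON.

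The largest falls were of genes that the parental line expressed strongly. S100A10, which forms a complex with annexin A2 at the plasma membrane, stood at 171, 128 and 167 FPKM in the parental libraries and at 0.19, 0 and 0 in YAPKO2. Annexin A1 (ANXA1), a phospholipid-binding protein, went from 79.4, 69.7 and 86.8 to 0.19, 0 and 0.166 FPKM. Both genes were abundant in every parental library and near 0 in every YAPKO2 library. S100A10 fell by 8.12 ± 0.29 (adjusted p = 1.51e-12) and ANXA1 by 7.01 ± 0.29 (1.36e-11). In sgCON S100A10 stood at 140 ± 9.07 FPKM and ANXA1 at 42.5 ± 2.03, a mean below every parental library. Neither was called in sgCON against parental cells (adjusted p = 0.81 and 0.052), ANXA1 only narrowly. MOXD1, a relative of dopamine beta-hydroxylase, fell by 6.97 ± 0.14 (99.6 ± 2.64 to 0.301 ± 0.0694) and CD36, a fatty acid and thrombospondin receptor, by 6.92 ± 0.22 (81.2 ± 6.09 to 0.182 ± 0.129). These genes were lower in sgCON as well, at 49.5 ± 3.97 and 20.8 ± 2.96 FPKM, with sgCON minus parental at -1.0 and -1.95.

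Among the other genes of the 15 largest falls, MME, the membrane peptidase neprilysin, fell by 5.25 ± 0.15 and stood at 21.3 ± 2.35 FPKM in sgCON against 20.9 ± 2.10 in parental cells. NPY, the sympathetic neuropeptide Y, held 55.9, 39.3 and 51.6 FPKM in the parental libraries and 2.02, 1.08 and 1.12 in YAPKO2, a fall by 4.71 ± 0.20. CASP8, the initiator caspase of death receptors, which is often silenced in neuroblastoma, went from 16.5, 17.4 and 16.8 to 0.0902, 0.369 and 0.208 FPKM and fell by 4.61 ± 0.27. The absence of overlap was part of how the 15 largest falls and rises were chosen. CASP8 was 12.9 ± 3.15 FPKM in sgCON and 5.63 ± 1.04 in YAPKO1, above the YAPKO2 level. B3GALNT1, which makes the globoside glycolipid, was lost in YAPKO2 (8.76, 9.70 and 10.3 to 0.0301, 0 and 0 FPKM) and stood at 8.72 ± 1.04 in sgCON and 7.98 ± 1.29 in YAPKO1. Its YAPKO2 minus YAPKO1 difference was -4.04 (adjusted p = 1.5e-11). CPA4, a carboxypeptidase, was listed at 0 in all YAPKO2 libraries against 22.8, 17.9 and 20.2 FPKM in parental cells, and sgCON was also low at 1.66 ± 0.747. VAT1L (-4.48 ± 0.16), the Rac activator DOCK2 (-4.56 ± 0.31), the fatty acid carrier FABP4 (-4.48 ± 0.29) and the calcification inhibitor MGP (-4.29 ± 0.35) completed the falls outside the matrix and caveola lists. MGP was already at 6.67 ± 1.77 FPKM in sgCON against 47.7 ± 5.55 in parental cells.

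The 15 largest rises held receptors and neuronal genes that were low in parental cells. TMPRSS15, the intestinal enteropeptidase, stood at 1.17, 1.23 and 1.09 FPKM in parental cells and at 99.7, 61.4 and 107 in YAPKO2. It was already 27.3 ± 1.48 in sgCON, and both YAPKO2 minus parental (5.71 ± 0.38) and sgCON minus parental (4.06) were called. CXCR4, the receptor of the chemokine CXCL12, was low in sgCON. Its parental libraries held 0.506, 0.799 and 0.576 FPKM and its YAPKO2 libraries 32.3, 38.1 and 30.7, with sgCON at 0.299 ± 0.103 and YAPKO1 at 3.40 ± 0.696. The rise was 4.93 ± 0.19 (adjusted p = 4.12e-12), and YAPKO2 exceeded YAPKO1 by 3.14 (adjusted p = 7.01e-09). NEUROD1, a neurogenic bHLH factor, went from 0, 0.154 and 0.0398 FPKM to 11.7, 10.2 and 15.4 and rose by 4.51 ± 0.25. IGFBPL1 (4.87 ± 0.20), ADCYAP1R1 (3.84 ± 0.25), the receptor of the neuropeptide PACAP, and AGTR1 (3.51 ± 0.18), an angiotensin II receptor, rose too. AGTR1 reached 10.7 ± 1.66 FPKM, with 2.06 ± 0.457 in sgCON and 0.491 ± 0.230 in parental cells.

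TSPAN13, a tetraspanin, was 19.1 ± 1.21 FPKM in YAPKO2 and 1.21 ± 0.415 in parental cells, a rise of 3.54 ± 0.18, while YAPKO1 stood at 2.14 ± 0.328. SDC2, the heparan sulphate proteoglycan syndecan 2, rose by 3.39 ± 0.24 to 11.6 ± 1.47 FPKM and was higher still in YAPKO1 (52.4 ± 9.19). OPRD1, the delta opioid receptor, and FAM163A went from 0.150 ± 0.132 and 0.103 ± 0.0341 to 5.31 ± 0.0833 and 6.07 ± 0.0732 FPKM. Neither of this pair rose in sgCON, where they stood at 0.059 ± 0.0705 and 0.0563 ± 0.0491. ATRNL1 (2.88 ± 0.22) and the collagen COL14A1 (2.92 ± 0.17) were the smallest of the 15 rises.

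Of the 22 YAP/TAZ-TEAD target genes listed, 18 passed the filter on low values (1 FPKM in at least 3 libraries), of which 8 fell, 3 rose and 7 were not called. The median difference over the 18 was -0.39, beside 0.00 over all genes. CYR61 and CTGF, secreted matricellular proteins and the usual readouts of YAP, were low in all lines. CYR61 was 5.36, 4.14 and 5.21 FPKM in parental cells and 0.160, 0.625 and 0.312 in YAPKO2, and CTGF 2.01, 1.81 and 2.44 against 0.0401, 0.113 and 0.104. In both genes all parental values lay above all YAPKO2 values. They fell by 2.67 ± 0.23 and 2.14 ± 0.25, and sgCON lay between, at 1.87 ± 0.221 and 0.664 ± 0.337 FPKM, with sgCON minus parental at -1.19 for each. MYOF, a membrane repair protein, fell by 2.60 ± 0.22, CCDC80 by 2.21 ± 0.23, AMOTL2, a feedback inhibitor of YAP, by 1.86 (19.2 to 4.89 FPKM) and the receptor kinase AXL by 1.14 (3.21 to 1.18 FPKM). The remaining falls were RBMS3 (-0.64, and 0.03 with GC correction, not called) and LATS2 (-0.52).

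The rises among YAP targets were NUAK2 (1.68), ARHGEF17 (0.61) and GADD45A (0.29). Only NUAK2 stayed called with GC correction (1.43), and without YAPKO2 replicate 2 the list likewise had 1 rise. NUAK2, a kinase of the AMPK family, held 0.567, 0.992 and 1.10 FPKM in parental cells and 3.88, 4.11 and 3.68 in YAPKO2, and stood at 0.862 ± 0.223 in YAPKO1. Its level was thus higher in YAPKO2 than in any library of the other lines in DMSO. GADD45A, which p53 also induces, was 24.8 in parental, 30.5 in YAPKO2 and 73.4 FPKM in sgCON. For sgCON against parental the list had 2 rises and 7 falls, and for YAPKO2 against sgCON 3 rises and 10 falls.

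The 250 bases before the start sites of CTGF, which fell, and NUAK2, which rose, are printed to set the TEAD motif beside opposite changes. The motif GGAATG and its reverse complement CATTCC, searched on both strands, are in capitals. CTGF is listed in RefSeq as CCN2.

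CTGF: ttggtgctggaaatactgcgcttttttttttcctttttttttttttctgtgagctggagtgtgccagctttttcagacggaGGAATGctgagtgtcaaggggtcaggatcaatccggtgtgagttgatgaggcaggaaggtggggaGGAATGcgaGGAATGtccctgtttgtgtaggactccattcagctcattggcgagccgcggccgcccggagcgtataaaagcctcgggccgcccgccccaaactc

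NUAK2: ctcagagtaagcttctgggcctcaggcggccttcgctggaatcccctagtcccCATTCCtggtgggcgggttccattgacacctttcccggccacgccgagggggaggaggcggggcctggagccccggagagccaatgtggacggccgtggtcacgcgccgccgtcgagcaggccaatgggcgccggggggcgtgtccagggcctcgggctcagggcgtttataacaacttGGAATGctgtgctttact

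These RefSeq sequences (GRCh38.p14) run from 131951373 to 131951622 on chromosome 6 for CTGF and from 205321746 to 205321995 on chromosome 1 for NUAK2, both on the minus strand. CTGF holds 3 matches and NUAK2 holds 2. Of the 16 target promoters found in the RefSeq table, 6 hold the motif, against 11.9% of 35116 promoters. A match is a description of these letters only.

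The Hippo pathway genes themselves changed in both directions. Of 27 tested members, 6 rose and 10 fell, and without YAPKO2 replicate 2 these counts were 3 and 6. FRMD6, an upstream activator of the Hippo kinases, fell by 1.78 ± 0.17 (18.6 ± 0.216 to 5.05 ± 0.547 FPKM) and the atypical cadherin FAT4 by 1.26 ± 0.22. TEAD1 fell by 0.82 (24.8 to 13.8 FPKM) and WWTR1, which encodes TAZ, by 0.67 (5.56 to 3.31 FPKM), and the WWTR1 call was lost with GC correction (-0.23). TEAD1 stood at -0.41 with GC correction. TEAD2 (0.57), TEAD4 (0.53), NF2 (0.46), AMOTL1 (0.59), WWC1 (0.70) and DCHS1 (0.92 ± 0.15), a protocadherin partner of FAT4, were the 6 rises. With GC correction the list had 8 rises and 8 falls. TEAD4 (0.20) was then not called, and TEAD2 (0.29), NF2 (0.23) and DCHS1 (0.56) were smaller. The kinase TAOK1 (-0.99 ± 0.28) also lost its call with GC correction (-0.47), without YAPKO2 replicate 2 (-0.74) and without parental replicate 3 (-0.85).

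**Figure D2:**
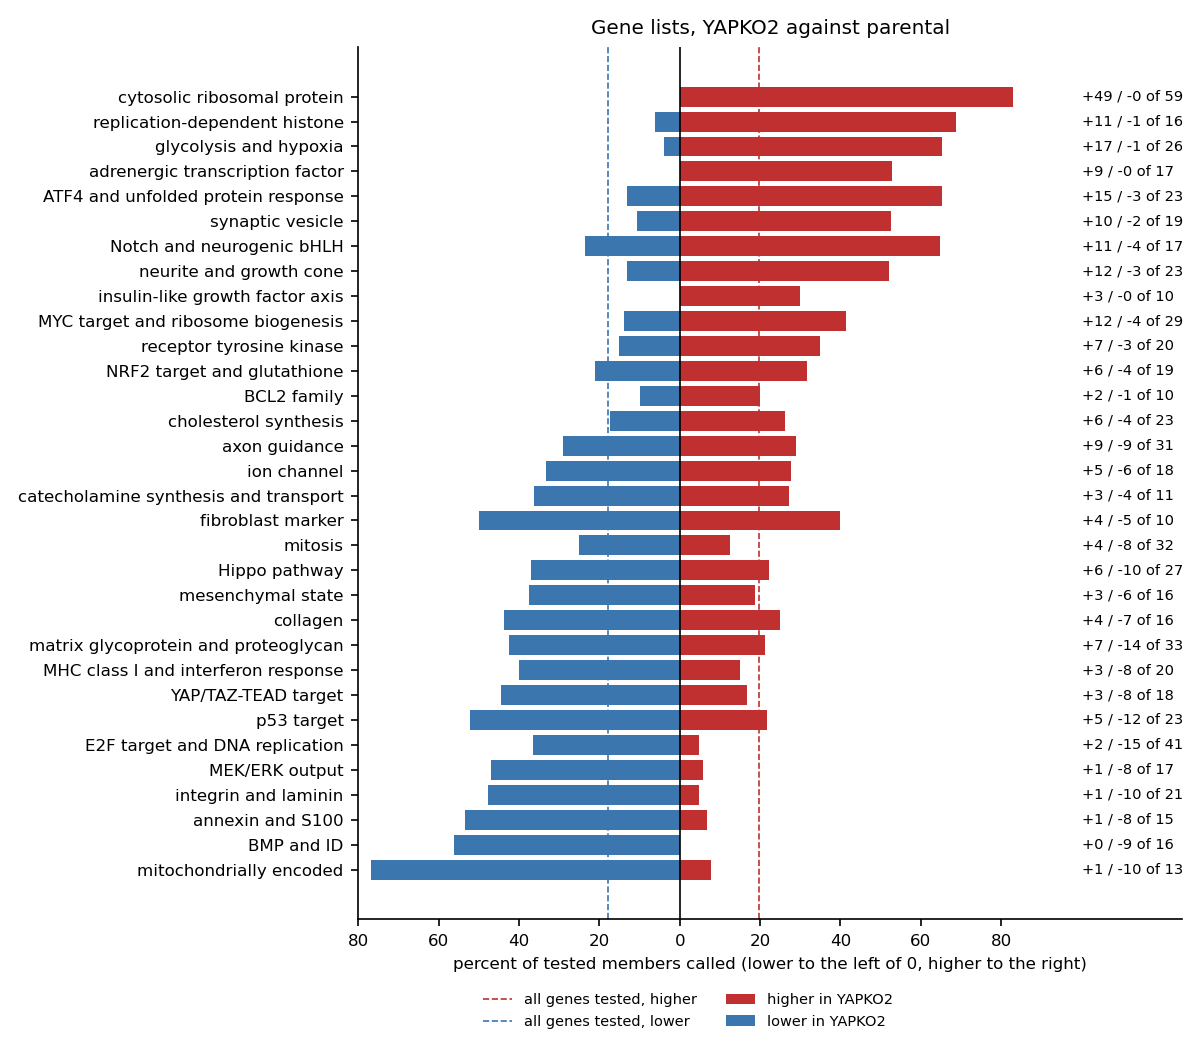
Percent of tested members of each gene list called higher (right) or lower (left) in YAPKO2 than in the parental line. Only lists with at least 10 tested members are drawn, with the counts printed beside each bar. Dashed lines mark the shares over all genes tested, 19.8% higher and 17.8% lower. The ribosomal protein, histone, glycolysis, ATF4 and adrenergic factor lists lie mostly to the right. The mitochondrially encoded, BMP, annexin and integrin lists lie mostly to the left.

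Among integrins, which link the cytoskeleton to the matrix, and laminins, their basement membrane ligands, 10 of 21 tested genes fell and 1, LAMA5 (1.07, and 0.60 with GC correction), rose. The median was -0.82. ITGB5 stood at 174, 194 and 210 FPKM in parental cells and at 38.8, 37.7 and 31.8 in YAPKO2, without overlap, and fell by 2.4 ± 0.18. ITGA1 (-2.32 ± 0.34), ITGA2 (-2.10 ± 0.21), ITGB8 (-1.52 ± 0.17, and -0.90 with GC correction) and ITGB1 (-1.01; 302 to 151 FPKM; -0.52 with GC correction) fell as well. In sgCON 5 members of this list fell and 2 rose against parental cells.

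Of 15 tested annexin and S100 genes 8 fell and 1, ANXA6 (0.90), rose. Beside S100A10 and ANXA1, S100A16 fell by 2.94 ± 0.25 (85.1 ± 6.12 to 10.7 ± 1.93 FPKM), S100A3 by 1.40 ± 0.28 and ANXA2, the partner of S100A10, by 1.19 from a parental level of 1.64 FPKM. Caveolae, small pits of the membrane, need caveolins and cavins. The caveolins CAV1, CAV2 and CAV3 did not pass the filter, but CAVIN1 went from 23.7, 22.6 and 24.9 to 0.0200, 0.0307 and 0.0208 FPKM and CAVIN2 from 8.53, 8.72 and 8.75 to 0.351, 0.471 and 0.510. Both fell in YAPKO2 in every library, CAVIN1 by 5.53 ± 0.15 and CAVIN2 by 3.28 ± 0.15. CAVIN1 was also reduced in sgCON (8.02 ± 0.907 FPKM) whereas CAVIN2 stood at 8.20 ± 0.200 there.

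Among matrix glycoproteins and proteoglycans 14 of 33 tested genes fell and 7 rose. Periostin (POSTN), a matrix protein of mesenchymal cells, went from 66.0, 69.2 and 70.5 FPKM to 1.93, 0.778 and 1.03, a fall by 5.36 ± 0.34. TGFBI (-3.69 ± 0.26), fibrillin FBN1 (-3.43 ± 0.17) and SPARC (-1.63; 190 to 61.3 FPKM) followed. Decorin (DCN), a small proteoglycan of collagen fibres, went the other way. It held 96.8, 99.96 and 99.7 FPKM in parental cells and 211, 217 and 198 in YAPKO2, a rise of 1.07 (1.67 with GC correction), while sgCON and YAPKO1 were at 13.9 and 12.5 FPKM. DCN was thus highest in YAPKO2 and lower in both other derived lines than in parental cells. Of 16 tested collagens 7 fell and 4 rose (COL14A1, COL1A2, COL6A1 and COL18A1). With GC correction COL6A1 was 0.34 and COL18A1 (0.14) was not called. COL3A1, a fibrillar collagen, fell by 2.75 ± 0.08 (170 ± 14.3 to 24.8 ± 1.96 FPKM), COL6A3 by 2.93 ± 0.12 and COL1A1 by 1.49 ± 0.30. COL1A2, whose chain joins that of COL1A1 in type I collagen, rose by 1.03 (2.93 to 6.54 FPKM).

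Of 17 tested adrenergic transcription factors, which maintain the sympathetic identity of neuroblastoma, 9 rose and 0 fell, with a median of 0.43. INSM2 (1.26 ± 0.11), HAND1 (1.09 ± 0.19) and EYA1 (1.05) were among the rises, whereas PHOX2A (0.16, adjusted p = 0.44), HAND2 (0.20, 0.19) and ISL1 (-0.21, 0.066) were not called. With GC correction 9 members were called higher and 2 lower, PHOX2A (-0.31) and TBX2 (-0.46).

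The mesenchymal state list, of which YAP1 itself is a member, had 6 falls and 3 rises among 16 tested genes. Beside YAP1, the AP-1 factor FOSL2 fell by 1.67 ± 0.19 (24.1 ± 2.26 to 7.18 ± 0.244 FPKM). ZEB1, a factor of epithelial-mesenchymal transition, was 20.0, 20.5 and 20.8 FPKM in parental cells and 12.6, 5.46 and 10.3 in YAPKO2 (-1.15 ± 0.39, adjusted p = 0.0295, and -0.57 with GC correction). ZEB1 was not called without YAPKO2 replicate 2 (-0.82) or without any 1 of the parental replicates (-1.16 to -1.14). NOTCH3 (0.94 ± 0.19), TWIST1 (0.70; 52.7 to 86.3 FPKM) and PRRX1 (0.52) rose, PRRX1 only to 0.262 FPKM, against 11.1 in YAPKO1. With GC correction these were 0.55, 0.44 and 0.96. With GC correction the list had 6 rises and 5 falls, and without parental replicate 2 or parental replicate 3 it had 3 falls, so its balance depended on these choices.

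Of 17 tested Notch pathway and neurogenic bHLH genes, NEUROD1 among them, 11 rose and 4 fell (JAG1, NHLH2, MAML2 and ATOH8), and 6 rose and 4 fell with GC correction. DLL3, a Notch ligand expressed in neuroendocrine cells, held 2.82, 2.44 and 2.24 FPKM in parental cells and 25, 30.8 and 26.7 in YAPKO2, a rise of 3.22 ± 0.17. DLL1 held 0.223, 0.164 and 0.248 against 1.72, 1.89 and 1.93, with sgCON at 0.198 ± 0.122 and YAPKO1 at 0.254 ± 0.0985. The levels of both ligands were separate in all 6 libraries. HES6, a bHLH factor that promotes neuronal differentiation, rose by 2.08 ± 0.13 (18.6 ± 0.788 to 80.7 ± 2.91 FPKM), with sgCON at 52.2 ± 2.51. NOTCH1 rose by 1.34 to 7.46 FPKM, and sgCON was at 7.6.

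Nicotinic acetylcholine receptor subunits, which carry fast transmission in autonomic ganglia, included 5 rises and 0 falls among 6 tested genes. CHRNA3 was 14.3, 21.1 and 19.2 FPKM in parental cells and 150, 154 and 152 in YAPKO2. CHRNB4, its partner subunit in ganglia, was 2.57, 2.65 and 2.82 against 14.5, 15.4 and 13.6. These neighbouring genes rose by 3.05 ± 0.13 and 2.23 ± 0.15, and their sgCON levels were 14.6 ± 2.34 and 3.58 ± 0.606 FPKM. CHRNA7 rose by 0.74 ± 0.13 and CHRNA5 by 0.33 (0.70 with GC correction). CHRNB2 (0.58 ± 0.19) lost its call with GC correction (0.32) and without parental replicate 1 (0.52), parental replicate 3 (0.58), YAPKO2 replicate 2 (0.58) or YAPKO2 replicate 3 (0.49). As a whole, without parental replicate 3 or without YAPKO2 replicate 3 the list had 3 rises.

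Of 23 tested neurite and growth cone genes 12 rose and 3 fell (MAP2, MAP1B and NCAM1), with a median of 0.55. STMN2, a tubulin-binding protein of growing axons, held 33.7, 42.3 and 31.3 FPKM in parental cells and 162, 155 and 219 in YAPKO2. It rose by 2.30 ± 0.19, with 81.4 ± 6.40 FPKM in sgCON and 25.7 ± 4.58 in YAPKO1, so the knockout lines differed. ELAVL3, a neuronal RNA-binding protein, rose by 2.31 ± 0.22, doublecortin (DCX) by 1.80 ± 0.20 and beta-III tubulin (TUBB3) by 1.38. MAP2, the dendrite microtubule protein, fell by 1.83 ± 0.26 (41.8 ± 2.43 to 11.4 ± 0.629 FPKM).

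Of 19 tested synaptic vesicle genes 10 rose and 2 fell, and 6 rose without YAPKO2 replicate 2. Synaptophysin (SYP) rose by 2.05 ± 0.24 from 0.424 ± 0.185 to 3.29 ± 0.293 FPKM and the calcium sensor DOC2B by 2.46 ± 0.23. The falls were SYT4, a synaptotagmin of dense-core vesicles, from 14.3 ± 0.375 to 0.558 ± 0.210 FPKM (-3.82 ± 0.28), and the fusion protein SNAP25 (-1.38 ± 0.20, and -0.86 with GC correction). Granins and neuropeptides, the cargo of those vesicles, had 3 rises and 4 falls among 9 tested genes. SCG2, a granin, held 96.1, 95.0 and 96.7 FPKM in parental cells and 17.8, 15.1 and 18.0 in YAPKO2, and fell by 2.47 ± 0.17. In sgCON it was 137 ± 4.88 and in YAPKO1 90.2 ± 12 FPKM, above every YAPKO2 library. VGF (-2.46 ± 0.21), NPY and PAM (-2.03), an enzyme that amidates neuropeptides, were the other falls. PCSK1N (2.29 ± 0.29), CHGA (1.53) and CPE (0.81) rose.

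In catecholamine synthesis and transport 3 of 11 tested genes rose and 4 fell. TH, the first enzyme of the pathway, did not pass the filter. The noradrenaline transporter SLC6A2 rose by 2.64 ± 0.16 (3.18 ± 0.938 to 22.0 ± 1.02 FPKM), with sgCON at 12.1 ± 1.26. MAOB, which degrades amines, went from 38.6, 37.2 and 39.2 FPKM to 2.65, 2.67 and 1.58 and fell by 3.82 ± 0.22. GCH1, which makes the cofactor of TH, fell by 1.51 ± 0.19 and the vesicular transporter SLC18A2 by 1.09 ± 0.30. Without YAPKO2 replicate 2, SLC18A2 was not called (-0.90).

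Axon guidance genes were split, with 9 rises and 9 falls among 31 tested. NRP1, a receptor of class 3 semaphorins and VEGF, fell by 2.89 ± 0.13 from 88.9 ± 8.71 to 11.5 ± 0.760 FPKM, with sgCON at 30.4 ± 2.66. SEMA3C fell by 2.92 ± 0.20 and SEMA3D by 2.05 ± 0.41 (-1.30 with GC correction), while SEMA3F rose by 2.25 ± 0.25.

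Targets of p53 stood lower in YAPKO2 than in sgCON in nearly every case, and were split against the parental line. Of 23 tested members, 12 fell and 5 rose in YAPKO2 against parental, with a median of -0.39. Without YAPKO2 replicate 2, 7 fell and 4 rose. In sgCON against parental, 15 rose and 1 fell, with a median of 0.78, and in YAPKO2 against sgCON 0 rose and 22 fell, with a median of -0.95. YAPKO1 against parental had 10 rises and 3 falls. CDKN1A, the cell cycle inhibitor p21, held 129, 114 and 128 FPKM in parental cells and 87.6, 98.7 and 97.0 in YAPKO2, against 389 ± 9.83 in sgCON. The parental and YAPKO2 libraries did not overlap, but the difference was small (-0.39, adjusted p = 0.0488) beside that from sgCON (-2.04), and -0.66 with GC correction. GDF15, a secreted stress factor, stood at 14.6, 18.3 and 73.7 FPKM in parental, YAPKO2 and sgCON cells and was not called in YAPKO2 against parental (0.33, adjusted p = 0.24).

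MDM2, the ubiquitin ligase that p53 induces and that degrades it, held 131, 127 and 140 FPKM in parental cells and 72.3, 41.2 and 63.2 in YAPKO2, and fell by 1.20 ± 0.28. It was 243 ± 5.29 FPKM in sgCON. TP53I3 fell by 1.71 ± 0.15 (65.5 ± 1.64 to 19.8 ± 1.74 FPKM) and was also lower in sgCON, at 29.6 ± 1.54. RRM2B (-1.66 ± 0.52, -0.99 with GC correction, and -1.35 and not called without YAPKO2 replicate 2) and the death receptor FAS (-1.07, and -0.52 with GC correction, not called) were further falls. The 5 rises were BTG2 (0.96), AEN (0.71), PHLDA3 (0.65), BBC3 (0.52) and SESN2 (0.47), and all of them were called higher in sgCON than in parental cells too. With GC correction BBC3 (-0.04) and SESN2 (0.16) were not called and PHLDA3 was 0.35. Among BCL2 family genes, which set the threshold of apoptosis, BCL2L1, the survival protein BCL-XL, rose by 1.15 ± 0.19 (12.5 ± 0.534 to 28.6 ± 3.06 FPKM), BMF rose (0.56 ± 0.20) and BCL2L2 fell by 0.59 ± 0.14, of 10 tested. BMF lost its call with GC correction (0.35) and without parental replicate 1 (0.54), parental replicate 3 (0.50), YAPKO2 replicate 1 (0.40) or YAPKO2 replicate 3 (0.53).

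**Figure D3:**
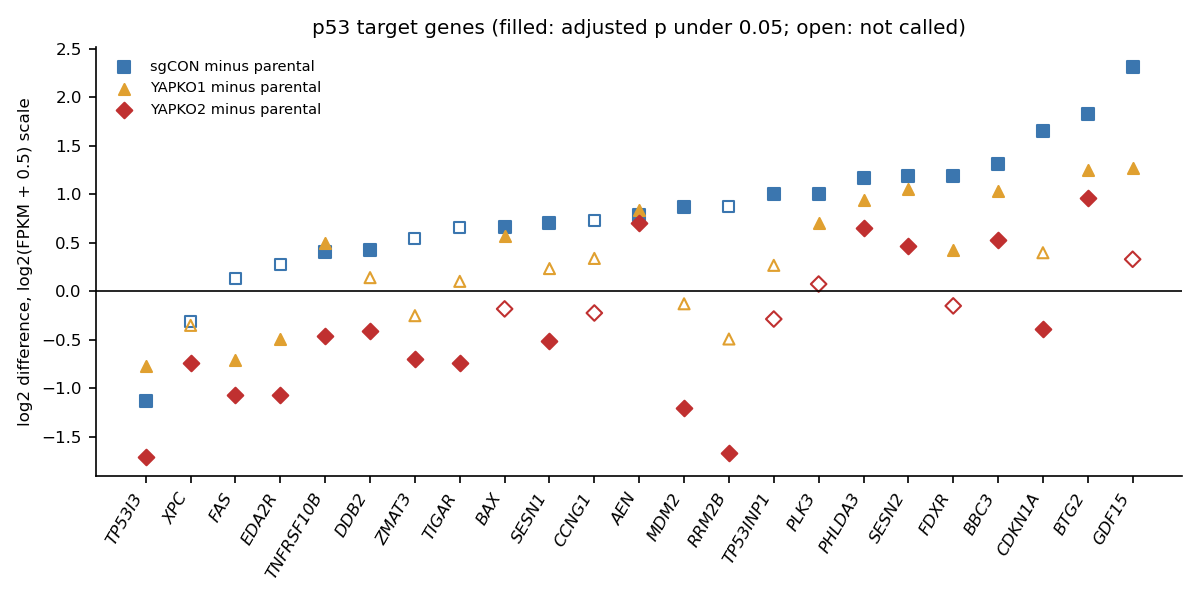
Log2 difference from the parental line of 23 p53 target genes in sgCON (squares), YAPKO1 (triangles) and YAPKO2 (diamonds); filled symbols passed an adjusted p of 0.05, and all 3 comparisons share the parental libraries. Most squares lie above 0, up to 2.32 for GDF15, while the diamonds spread from -1.71 for TP53I3 to 0.96 for BTG2.

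Of 41 tested E2F target and DNA replication genes 15 fell and 2 (E2F2 and CDT1) rose, with a median of -0.16. With GC correction 4 rose, and CDT1 (0.20) was not among them. CLSPN, a checkpoint mediator, fell by 1.32 ± 0.28, RFC4, a clamp loader subunit, by 1.11 ± 0.19 and thymidine kinase TK1 by 1.01 ± 0.20 (143 ± 2.17 to 71.5 ± 11.8 FPKM). TK1 stood at 92.2 ± 2.39 FPKM in sgCON, where 11 members fell against parental and 0 rose. CCNE2 (-1.56 ± 0.43) was -0.90 with GC correction, and -1.30 and not called without YAPKO2 replicate 2. Of 32 mitosis genes 8 fell and 4 rose (UBE2C, AURKB, TPX2 and KIF20A), beside 17.8% and 19.8% of all genes. AURKB was 0.62, and 0.39 with GC correction. With that correction 7 members of the list fell and 6 rose, with a median of 0.0005. The falls depended on the libraries, with 5 falls without YAPKO2 replicate 2 or without parental replicate 3. CENPE (-2.18 ± 0.56, and -1.45 with GC correction), TTK and CENPF led them. CENPF held 84.0, 94.2 and 92.8 FPKM in parental cells but 46.9, 12.9 and 25.1 in YAPKO2, where replicate 2 was lowest. It was called in the fit of all libraries (adjusted p = 0.0417) and in only 1 of the 6 fits that left out a library, as was TTK.

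Replication-dependent histone genes, whose RNAs lack a poly(A) tail, were mostly higher, with 11 rises and 1 fall (HIST1H4C) among 16 tested. The list names 31 genes, of which only these 16 were found under the names used. HIST2H2AC rose by 1.23 ± 0.22 (1012 ± 116 to 2383 ± 441 FPKM) and HIST1H1E by 1.07 ± 0.25. The list had 6 rises without YAPKO2 replicate 2 and 6 without parental replicate 2. With quantile normalization it had 6 rises and 2 falls. HIST1H4C was 6.17 in parental, 2.94 in YAPKO2 and 55.9 FPKM in sgCON. Histone genes are near-identical within families, so reads shared among them make single genes uncertain.

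MEK/ERK output genes, the feedback and target genes of RAS signalling, had 8 falls and 1 rise (IER3) among 17 tested. Without parental replicate 3 or without YAPKO2 replicate 3, as with quantile normalization, 5 fell. Cyclin D1 (CCND1) held 223, 254 and 237 FPKM in parental cells and 100.1, 102 and 83.6 in YAPKO2, a fall by 1.32 ± 0.10. It was as low in sgCON (83.6 ± 2.85), and YAPKO2 minus sgCON was 0.18 (adjusted p = 0.18). DUSP6, the ERK phosphatase, held 16.8, 14.6 and 15.8 against 6.96, 5.62 and 6.42 and fell by 1.25 ± 0.19. In contrast to CCND1, DUSP6 was higher in sgCON (24.4 ± 2.39) than in parental cells. EPHA2 followed the order of DUSP6, with 9.40 ± 0.528 FPKM in parental, 4.34 ± 0.588 in YAPKO2 and 21.8 ± 1.07 in sgCON cells. IER3 rose from 0.176 ± 0.0898 to 0.665 ± 0.278 FPKM (0.77 ± 0.23) and lost its call with GC correction (0.48), without parental replicate 2 (0.68) and without YAPKO2 replicate 2 (0.58).

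Among 20 tested receptor tyrosine kinase genes and partners 7 rose and 3 fell. NGFR, the neurotrophin receptor p75, held 0.111, 0.193 and 0.0994 FPKM in parental cells and 3.76, 3.85 and 3.92 in YAPKO2, a rise of 2.78 ± 0.21. It stood at 0.0896 ± 0.0505 in sgCON and 0.328 ± 0.187 in YAPKO1, below every YAPKO2 library. NTRK3, the receptor of neurotrophin 3, rose by 2.32 ± 0.37 (2.68 ± 1.21 to 15.2 ± 4.55 FPKM), with 0.788 ± 0.740 in sgCON. ALK, a kinase that is mutated in part of neuroblastomas, was listed at 0 in all parental libraries and at 0.982, 0.973 and 0.863 FPKM in YAPKO2. PDGFRA (-1.12 ± 0.25), ERBB4 (-1.03, and -0.52 with GC correction, not called) and EGFR (-0.61) fell.

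MYCN, the oncogene amplified in many neuroblastomas, was higher in every derived line. Parental libraries held 29.1, 35.4 and 31.5 FPKM and YAPKO2 libraries 118, 127 and 131, a rise of 1.95 ± 0.12 (adjusted p = 1.96e-09). The sgCON level was 96.2 ± 3.48 and the YAPKO1 level 207 ± 33.6, and sgCON minus parental was 1.58. YAPKO2 minus sgCON was 0.38 (adjusted p = 0.029). Of 8 tested genes of the MYCN amplicon 3 rose, MYCN, its antisense transcript MYCNOS (1.52) and FAM49A (1.83 ± 0.29), and 2 fell, SMC6 (-1.56 ± 0.59) and GEN1 (-1.54 ± 0.39). Strand use in the quantification is not given in the sources used here, so MYCNOS cannot be told apart from MYCN. DDX1 (2944 to 2066 FPKM; -0.51, adjusted p = 0.0765) was not called. SMC6 held 929, 960 and 936 FPKM in parental cells and 504, 200 and 322 in YAPKO2, kept its call in 1 of the 6 fits that left out a library, and stood at -0.94 with GC correction.

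Cytosolic ribosomal protein genes were the list with the most rises: 49 of 59 tested rose and 0 fell, with a median of 0.69 and values from -0.44 to 1.36. RPS16 held 802, 809 and 931 FPKM in parental cells and 2068, 2364 and 2103 in YAPKO2, a rise of 1.36 ± 0.21. RPS27 rose by 1.29 ± 0.11 and RPS3 by 1.09 ± 0.13, and these groups did not overlap. The sgCON line had 28 rises and 0 falls against parental cells (median 0.40), and YAPKO2 had 19 rises and 0 falls against sgCON. The counts depended on the scaling: with quantile normalization 16 members rose and 4 fell. Many of these genes have processed pseudogenes, which can share their reads.

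Ribosome biogenesis and other MYC targets had 12 rises and 4 falls (NOP58, GNL3, HSPD1 and HSPE1) among 29 tested. The rises numbered 7 with GC correction, 5 without YAPKO2 replicate 2, 6 without parental replicate 1 and 7 without parental replicate 2, and the falls 1 without YAPKO2 replicate 2 and 2 without YAPKO2 replicate 3. FBL, the methyltransferase fibrillarin, rose by 1.01 ± 0.18 (178 ± 14 to 358 ± 33.6 FPKM), and the nucleolar protein NOP58 fell by 1.45 ± 0.45. NOP58 was not called without YAPKO2 replicate 2 (-1.23) or YAPKO2 replicate 3 (-1.37). GNL3 stood at -0.78, and at -0.38 with GC correction, and was called without YAPKO2 replicate 1 but in no other fit that left out a library (-0.80 to -0.65).

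Glycolysis and hypoxia genes had 17 rises and 1 fall (PFKP, -0.71) among 26 tested, with a median of 0.55. VEGFA, the hypoxia-induced angiogenic factor, held 4.33, 5.71 and 5.23 FPKM in parental cells and 18.5, 16.7 and 17.1 in YAPKO2. The values did not overlap, and VEGFA rose by 1.69 ± 0.18. The glucose transporter SLC2A1 rose by 1.11 ± 0.19, BNIP3, a mitophagy receptor, by 1.02 ± 0.09 and NDRG1 by 0.99 ± 0.21. In sgCON 3 members rose and 2 fell against parental cells, and 13 rose in YAPKO2 against sgCON. Without YAPKO2 replicate 2 the list had 11 rises. Genes of the ATF4 and unfolded protein response, which raise amino acid supply under stress, had 15 rises and 3 falls (SLC7A11, ATF5 and HSPA5) among 23 tested. DDIT4, an inhibitor of mTORC1, rose by 2.01 ± 0.13 (11.8 ± 0.367 to 49.1 ± 5.48 FPKM) and the amino acid transporter SLC7A5 by 1.45 ± 0.18. The cystine transporter SLC7A11 fell by 1.76 ± 0.24 (-1.03 with GC correction).

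Mitochondrially encoded genes had 10 falls and 1 rise (MT-ND3, 0.70, and 1.18 with GC correction) among 13, with a median of -0.82. MT-ND5, a subunit of respiratory complex I, held 112, 111 and 104 FPKM in parental cells and 46.2, 29.1 and 34.1 in YAPKO2, and fell by 1.59 ± 0.24. It was 37.8 ± 8.90 in sgCON, and YAPKO2 minus sgCON was -0.05 (adjusted p = 0.89). MT-CO1 fell by 0.52 (1273 to 900 FPKM; -0.43 and not called with GC correction) and MT-CO3 was not called (0.14). With GC correction 5 members fell.

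BMP signalling genes and their ID targets, inhibitors of bHLH factors, had 9 falls and 0 rises among 16 tested. The BMP antagonist GREM1 held 4.6, 4.30 and 4.51 FPKM in parental cells and 0.381, 0.143 and 0.187 in YAPKO2, and fell by 2.77 ± 0.18. BAMBI, a decoy receptor, fell by 1.29 ± 0.14 and ID4 by 0.91 ± 0.13. BMPR1B, a type I receptor, fell by 1.29 ± 0.17 (-0.71 with GC correction). In sgCON 10 members fell and 0 rose against parental cells. Of 20 tested MHC class I and interferon response genes 8 fell and 3 rose, among them HLA-C and IFITM1. With GC correction HLA-C (0.54) was not called. IFITM3, an antiviral membrane protein, held 29.2, 29.3 and 26.2 FPKM in parental cells and 2.83, 2.36 and 2.22 in YAPKO2. It fell by 3.28 ± 0.20, whereas sgCON (57.0 ± 6.72) was above and YAPKO1 (33.7 ± 6.71) near the parental level. The RNA sensor DDX58 fell by 1.46 ± 0.24.

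Markers of other cell types were read beside these groups. Of 12 Schwann cell markers 6 were tested and 1, NGFR, rose, while SOX10 stayed at or below 0.301 FPKM and CDH19 was listed at 0 in all 6 libraries. The summed level of this list was 9.14 to 12.4 FPKM in parental cells and 14.1 to 15.8 in YAPKO2. Fibroblast markers, most of them matrix genes treated above, summed to 895 to 960 FPKM in parental cells and 402 to 632 in YAPKO2, with 4 rises and 5 falls among 10 tested, and FAP was listed at 0 in all 6 libraries. Lumican (LUM) was the largest part of that sum in parental cells, with 553, 611 and 556 FPKM in parental cells and 340, 103 and 200 in YAPKO2 (adjusted p = 0.062). Epithelial markers summed to 5.72 to 7.04 and 2.32 to 2.69 FPKM, with CDH1, KRT5 and KRT14 listed at 0, and KRT18 fell by 1.52 ± 0.21. Of blood and endothelial markers only CD68, a lysosomal protein, was tested. It fell from 11.8 ± 1.78 to 0.737 ± 0.402 FPKM (-3.35 ± 0.29), while CD3E, HBB and KDR were listed at 0. The adrenergic factors summed to 464 to 486 FPKM in parental cells and 678 to 738 in YAPKO2. The part of other cells in the results was not tested.

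Differences also ran along chromosomes. The GC-corrected difference was read as a median over 40 neighbouring protein-coding genes, a view chosen after the data were seen, and runs with medians of at least 0.3 in size over 4 or more overlapping windows were kept. The longest run lay on chromosome 1, from HSD3B1 to HHAT in gene order. Of its 380 genes 82.1% were above 0 in YAPKO2, with a median of 0.50, beside 0.04 for the other 841 genes of that chromosome. In this run sgCON (-0.08) and YAPKO1 (0.01) had medians near 0. A run on chromosome 2 from SCRN3 to CDK15 held 100 genes, of which 81% were below 0 (median -0.44; sgCON -0.07, YAPKO1 -0.13). On chromosome 14, from PPP1R3E to PLEKHH1, 180 genes had a median of -0.45, as in sgCON (-0.45) and unlike YAPKO1 (-0.05). The low stretch of sgCON overlapped this run but began and ended further along. In the window from PPP1R3E to SDR39U1 the medians were -0.40 in YAPKO2 and -0.07 in sgCON. Beyond the run, from SIPA1L1 to TGFB3, they were 0.13 in YAPKO2 and -0.48 in sgCON. On chromosome 3, from CNTN6 to DHFR2, 340 genes had a median of -0.39, and sgCON (-0.50) and YAPKO1 (-0.43) were low as well. The other genes of chromosome 3 had a median of -0.18 in YAPKO2. Over the whole chromosome the median was -0.32 in YAPKO2, -0.37 in sgCON and -0.32 in YAPKO1. DNA was not measured.

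Several genes described above lie inside these runs, and some of them moved against their neighbours. The chromosome 1 run holds 10 of the genes named by rule, 7 above 0 and 3 below. RPS27, PMVK (1.15 ± 0.19), FAM163A and HIST2H2AC rose in this run, while S100A10, S100A16 and S100A3 fell in it. The p53 target BTG2 and the YAP target NUAK2, named outside that rule, also rose and lie in it. Both are in the window from TMEM9 to ELK4, whose median was 0.80 in YAPKO2, and whether their rises go beyond that of their neighbours was not tested. In the chromosome 2 run COL3A1, CAVIN2 and CASP8 fell and NEUROD1 rose. In the chromosome 14 run FRMD6, GCH1 and BCL2L2 fell and INSM2 rose. In the chromosome 3 run GNL3 fell and SEMA3F rose.

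**Figure D4:**
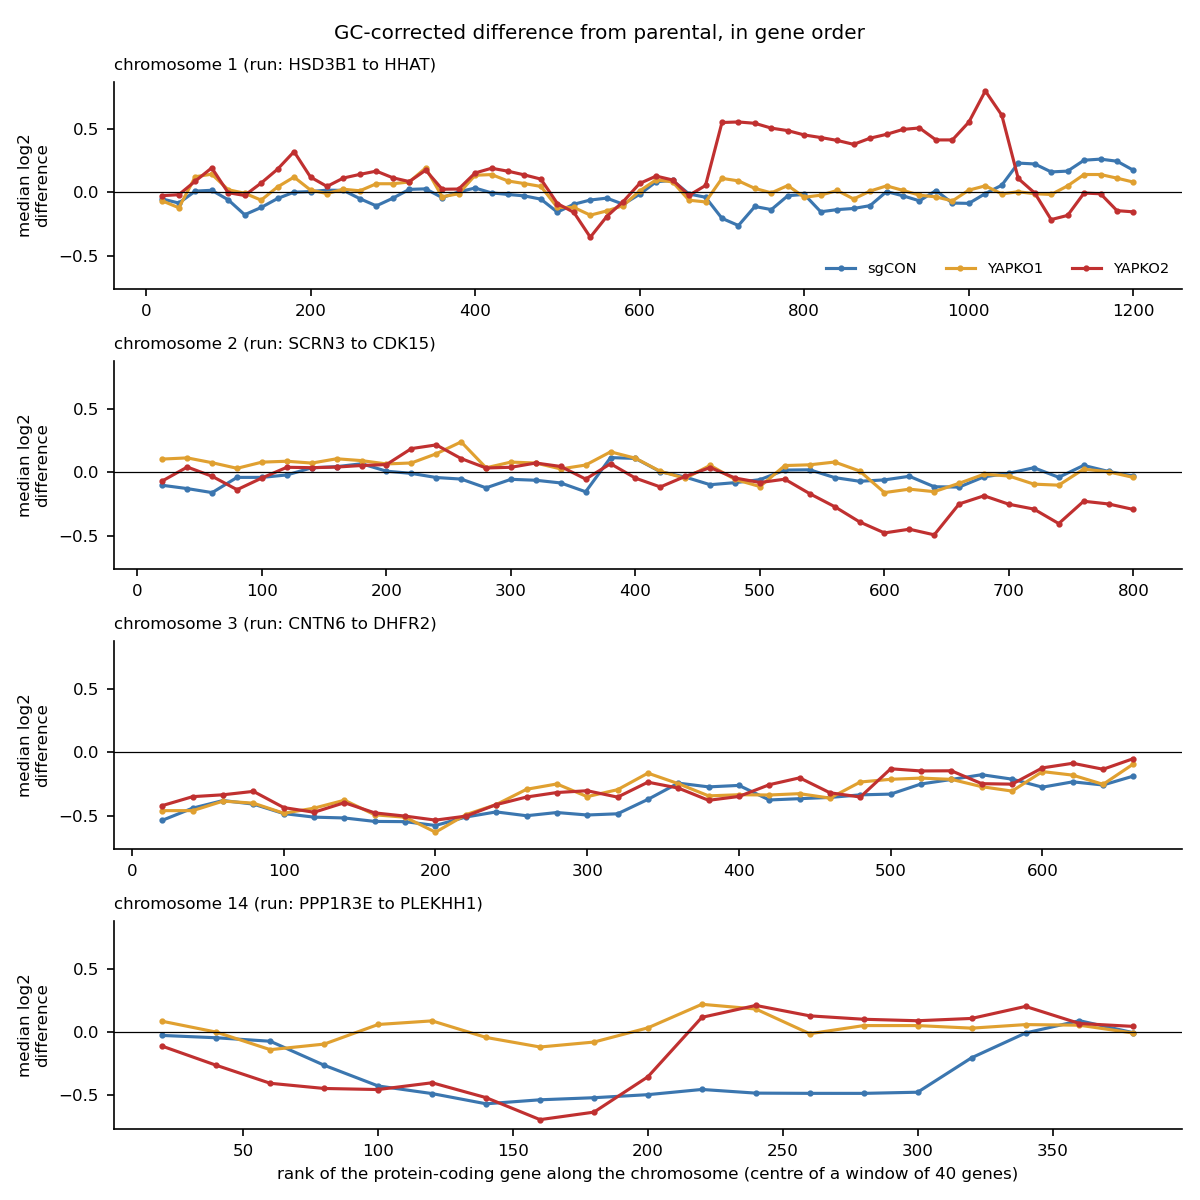
Median GC-corrected log2 difference from the parental line in overlapping windows of 40 neighbouring protein-coding genes on chromosomes 1, 2, 3 and 14, for sgCON, YAPKO1 and YAPKO2; the x axis is the rank of the gene along the chromosome. YAPKO2 alone is raised between HSD3B1 and HHAT, and all 3 lines are low on chromosome 3. On chromosome 14 the low stretches of sgCON and YAPKO2 overlap, but that of sgCON begins and ends further along.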

How the data were processed

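RNA-seq of NLF cells was read from a table of FPKM values that the authors deposited for 57820 genes in 21 libraries. Per the submitters' processing notes, STAR 2.4.2, RSEM 1.3.0 and hg19 were used; filters, and whether the strand of the reads was used, are not given in the sources used here. FPKM carry no read counts, so depth is unknown and no count model was used. A second deposited table of calibrated FPKM is the first multiplied by 0.927 to 1.07 per library and served as an alternative.

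FPKM were scaled by median ratios. Genes with at least 1 FPKM in at least 3 libraries (16194) were tested on log2(FPKM + 0.5) with limma 3.58.1 in R 4.3.3, with 1 mean for each of the 7 groups over all 21 libraries, a mean-variance trend and two-sided Benjamini-Hochberg adjusted p under 0.05. A difference on this scale understates the change of low genes. The filter, the scaling and the spread also drew on libraries of sgCON, YAPKO1 and YAPKO2 treated with 20 nM trametinib. With 3 against 3 libraries a single exact permutation test cannot go below p = 0.1. GC content came from GENCODE v29 transcripts and was corrected per library by a spline with 5 degrees of freedom. On simulated data, 70 of 100 genes changed by 1 log2 unit and 95 of 100 changed by 2 were called. There were 15 false calls among the unchanged genes of the 16194. Only those genes were changed, all above a minimum level, with independent noise in each library and no GC trend. The real comparison had 37.6% of genes called and a GC trend, so these rates cannot be carried over to it.

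The genes named were YAP1, MYCN, the 15 largest rises and falls among called protein-coding genes without overlap between groups, up to 4 called members of each list, and markers of other cell types at 1 FPKM or more. Other genes named from the lists, and LRRC17 and PKP1, were chosen after their values were seen. Some genes that this rule or the lists hold are not reported here. Members and the 40 gene lists were chosen with earlier results of these data known. Alternatives were other pseudocounts, filters, scalings and sample sets, the calibrated table, GC correction, a replicate block and leaving out each library. Python 3.11.15, pandas 2.3.3, numpy 2.4.6 and matplotlib 3.10.9 were used for tables and figures. Guides were matched exactly to GENCODE v29 transcripts.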

Additional observations from a re-analysis of the deposited data

Results flagged for a closer look

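PDGFRA, the platelet-derived growth factor receptor alpha, differed between the knockout lines, with YAPKO2 minus YAPKO1 at -2.01 on the log2 scale (adjusted p = 4.23e-05, limma). It held 1.91, 1.40 and 2.12 FPKM in the parental libraries and 0.351, 0.440 and 0.947 in YAPKO2, where it fell by 1.12 ± 0.25 (adjusted p = 0.00213). In YAPKO1 it stood at 3.89 ± 1.34 FPKM and was called higher than in parental cells (0.89, adjusted p = 0.014). In sgCON it was 0.447 ± 0.174 FPKM. It was listed here because the 2 knockout lines were called on opposite sides of the same parental libraries.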

How the results depend on the processing

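The count of 6091 genes called between YAPKO2 and parental cells ranged from 5599 to 7395 over the other pseudocounts, filters, scalings, sample sets and corrections. It ranged from 4171 (without YAPKO2 replicate 2) to 5658 (without YAPKO2 replicate 1) when 1 library was left out. With at least a 2-fold change required, 1958 were called. With quantile normalization 3514 rose and 2558 fell. The lowest of the first range, 5599, came from the fit with the replicate number as a block. Between parental and YAPKO2 libraries of the same number, correlations after removal of group means were near 0, at 0.013, -0.008 and -0.015. Whether libraries were paired or shared a batch in another way was not tested. With GC correction and the block 6009 genes were called. For sgCON against parental, a fit of only these groups called 4684 genes in place of 2556, and for YAPKO2 against YAPKO1 GC correction called 1756 in place of 1125. The causes were not tested. Of 162 genes named by rule, 0 changed direction, 141 kept their call under each of the 20 alternatives that gave a value, and 21, among them ZEB1, SLC18A2, IGF2BP1, CENPF, TTK, SMC6 and NOP58, lost it in at least 1. The filter on the 6 libraries compared gave no value for ALK, CHRNB2, HOXC5 and IER3. Outside that rule, RBMS3, BBC3 and PHOX2A changed sign with GC correction (0.03, -0.04 and -0.31). Depth is unknown, so precision at low FPKM cannot be given.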

Other observations

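Ion channel genes changed in both directions in YAPKO2. Of 18 tested members 5 rose and 6 fell against parental cells, and 8 rose and 6 fell with GC correction, beside 19.8% and 17.8% of all genes. KCNMA1, the large-conductance calcium-activated potassium channel, held 5.81, 4.44 and 4.99 FPKM in parental cells and 0.110, 0.266 and 0.0208 in YAPKO2, and fell by 3.15 ± 0.18 (adjusted p = 6.54e-10, limma). It stood at 2.14 ± 0.405 in sgCON and 1.78 ± 0.254 in YAPKO1, above every YAPKO2 library. SCN9A, a sodium channel of sensory and sympathetic neurons, fell by 1.62 ± 0.25 (-1.05 with GC correction), and the potassium channel KCNH2 rose by 1.23 ± 0.16 (0.75 with GC correction).

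Cholesterol synthesis genes had 6 rises and 4 falls among 23 tested, with 2 falls without parental replicate 1, parental replicate 2 or YAPKO2 replicate 1. HMGCS1, an early enzyme of the pathway, fell by 1.28 ± 0.25 (36.7 ± 0.812 to 14.9 ± 1.58 FPKM; -0.79 with GC correction), with sgCON at 39.1 ± 0.821. NRF2 targets and glutathione genes had 6 rises and 4 falls among 19 tested, with 2 rises without YAPKO2 replicate 2 and 3 without parental replicate 2. NQO1, a quinone reductase, fell by 1.17 ± 0.15 (135 ± 0.254 to 60.1 ± 7.09 FPKM). In the insulin-like growth factor axis 3 of 10 tested genes rose and 0 fell: IGFBP2 (2.02 ± 0.27), the imprinted RNA H19 (1.3 ± 0.25) and IGF2BP1 (0.45 ± 0.17). IGF2BP1 was not called in any of the 6 fits that left out a library (0.41 to 0.50), and with GC correction the list had 3 rises and 2 falls. H19 stood at 15.8 ± 2.32 FPKM in parental cells, 39.8 ± 7.19 in YAPKO2 and 5.97 ± 1.14 in sgCON. Of 39 HOX genes 4 were tested and 1 rose, HOXC5 (0.73 ± 0.23), whose call was lost with GC correction (0.45).

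A pair of genes outside the lists stood apart. LRRC17 held 161, 156 and 155 FPKM in parental cells and 14.2, 11.7 and 13.9 in YAPKO2 (-3.53 ± 0.25). In sgCON it was at 17.5 ± 1.57, so YAPKO2 and sgCON were both low beside the parental line. PKP1, a desmosomal plaque protein, was listed at 0 in all parental and sgCON libraries and held 3.00, 3.12 and 3.17 FPKM in YAPKO2, with YAPKO1 at 0.0202 ± 0.0202.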
